A study of Bos taurus with 17 samples.

Results

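The first 3 days in myogenic differentiation medium on plastic were examined in mesenchymal stem cells of the bovine umbilical cord, stromal cells in primary culture that can enter fat, bone, cartilage and muscle-like programmes. The comparison set 3 day 3 libraries against 3 day 0 libraries, 6 of the 17 libraries that the labels describe, and took in every gene with a mean of at least 5 normalized reads over those 6 columns. This rule kept 10683 of 12894 genes, with means of 5.01 and 4.995 for the genes just inside and just outside the limit. The study grew such cells on plastic and on cellulose scaffolds for cultivated meat, and RNA was measured by MARS-seq, which counts the 3′ ends of polyadenylated transcripts. Day 3 cells had spent 3 days in a DMEM and DMEM/F-12 medium with 2% serum, 1% ITS (insulin, transferrin and selenium), 1% albumin, dexamethasone, ascorbic acid 2-phosphate, 10 ng/mL VEGF, 10 ng/mL IGF and a fibroblast-like growth factor (FGF) whose dose the labels omit. Day 0 cells were taken the day after seeding in low-glucose DMEM with 10% serum and had no such treatment. Both groups carried antibiotics and glutamine. Time in culture and medium changed together, so their effects cannot be told apart.

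Mesenchymal stem cells are adherent stromal cells that divide in serum-rich medium and slow down when serum is withdrawn. Serum brings mitogens, lipoproteins and lysophospholipids, and the medium of day 3 replaces part of this with insulin, a synthetic glucocorticoid and single growth factors. Cells short of outside cholesterol release the transcription factors SREBP1 and SREBP2 from the endoplasmic reticulum, which switch on sterol and fatty acid synthesis. ATF4 does the same for amino acid synthesis and uptake when amino acids run short, HIF1 for glycolysis and collagen modification when oxygen does, and YAP together with SRF for adhesion and contractile genes when cells spread and pull. The results below follow these systems.

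The stromal identity of the cultures was checked against marker genes. Of 14 stem cell markers, 13 were analysed and 11 passed the minimum. THY1, a surface marker of these cells, had 1052, 747 and 594 normalized reads at day 3, against 421, 366 and 416 at day 0. NT5E, which makes adenosine at the cell surface, had 368, 342 and 409 at day 3, against 299, 301 and 294 at day 0. The hyaluronan receptor CD44 had 1000.3, 1105 and 1144 at day 3, against 1497, 1424 and 1364 at day 0, with every day 3 library below every day 0 library. PDPN was at 0 reads in all 6 libraries, and MCAM had at most 3 reads in any of them. In the other lineages the levels were low. Of 14 endothelial markers 6 were analysed, and the 5 above the minimum had summed levels of 105 to 135 at day 3 and 152 to 156 at day 0. Of 14 blood and immune markers 7 were analysed, and the 6 above the minimum had sums of 46.4 to 103 at day 3 and 42.1 to 47.8 at day 0. Likewise 3 of 12 epithelial markers were analysed, none of which reached the minimum. CDH1 and KRT7, which define epithelium, were at 0 in the 3 day 3 libraries. In bulk RNA, fewer cells of a type and less RNA per cell cannot be told apart.

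Recovered read totals were 8629658, 6269646 and 3118284 for day 3 replicates 1 to 3 and 8952711, 11395564 and 15483745 for the day 0 replicates, so 1 read was worth 0.395 to 1.79 normalized reads. Intervals and floors from read counts cover counting error only. The libraries are called biological replicates in the series' design text, and the spread among these 6 sets all p-values. In a principal component analysis 62.8% of the variance lay along a first axis that divided the days, with scores of 28.3 to 44.0 at day 3 and −39.4 to −33.4 at day 0. A second axis, with 19.6%, spread out the day 3 libraries alone, at 0.46, 31.4 and −39.6, while day 0 lay between 0.95 and 4.14. Replicates correlated across genes at 0.960 to 0.979 at day 3 and 0.990 to 0.992 at day 0.

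Of the 10683 genes, 1080 (10.1%) were called in limma, at an adjusted p under 0.05 and a log2 fold change of 1 or more either way, with Benjamini-Hochberg adjustment. At day 3, 665 (6.22%) were higher and 415 (3.88%) lower than at day 0. "Rose" and "fell" below mean that a gene passed this test, log2 fold changes are day 3 minus day 0 on the log2(value + 1) scale and are given ± their standard error (n = 3 libraries each), and levels are normalized reads in day 3 replicates 1 to 3 and then day 0 replicates 1 to 3. The median over all genes was −0.03, with an interquartile range of −0.36 to 0.33. At least a 4-fold change was seen in 160 higher and 65 lower genes, and at least an 8-fold one in 48 higher and 16 lower genes. The libraries of the days did not overlap for 4814 genes (45.1%), 2278 of them higher and 2536 lower, and for 1074 of the 1080 called genes. For a called gene, lack of overlap therefore adds little. With no fold limit, 2847 genes (26.6%) passed. Without day 3 replicate 3, 1381 genes were called.

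**Figure D1:**
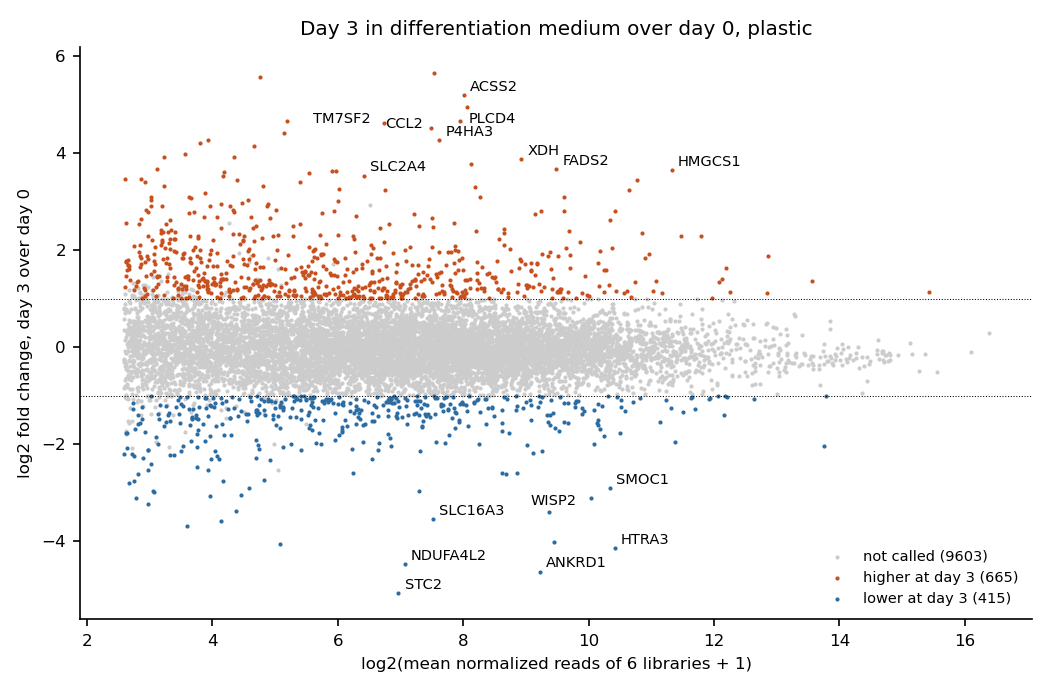
Log2 fold change of day 3 over day 0 on plastic (vertical) against the mean level over the 6 libraries on a log2 scale (horizontal), 1 point per gene tested. The 665 higher genes are orange, the 415 lower ones blue, dotted lines mark a log2 fold change of 1 either way, and the 2 points above ACSS2 are genes without a symbol.

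Nearly all cholesterol synthesis enzymes rose. Of 21 enzymes tested, 20 rose and none fell, with a median log2 fold change of 1.92 against −0.03 over all genes. All 8 enzymes from acetyl-CoA to farnesyl diphosphate rose, by 1.60 to 3.65. IDI1, which makes the reactive isoprene unit, had 2378, 1845 and 2442 normalized reads at day 3, against 369, 373 and 338 at day 0 (log2 fold change 2.61 ± 0.13, adjusted p = 3.59e-06). The 3 enzymes from squalene to lanosterol rose by 2.11 to 2.81. LSS, which closes the sterol rings, had 1476, 1310.1 and 1299.6 at day 3, against 186, 203 and 193 at day 0 (log2 fold change 2.81 ± 0.11). SQLE, the squalene epoxidase before it, had 773, 334 and 871 at day 3, against 145, 145 and 132 at day 0 (log2 fold change 2.11 ± 0.31, adjusted p = 0.00146). Its day 3 libraries were all above day 0, with replicate 2 the lowest of them. Of the 10 enzymes from lanosterol to cholesterol 9 rose, among them CYP51A1, the first demethylase, with 621, 423 and 841 at day 3, against 125, 127 and 134 at day 0 (log2 fold change 2.22 ± 0.22). The exception was LBR, a sterol reductase that is also a nuclear envelope protein, with 267, 434 and 323 at day 3, against 363, 363 and 381 at day 0 and overlapping libraries (log2 fold change −0.14 ± 0.17, adjusted p = 0.579). TM7SF2, which carries out the same reduction as LBR, had 231, 257 and 123 at day 3, against 5.63, 7.999 and 7.5 at day 0 (log2 fold change 4.61 ± 0.29). EBP, a sterol isomerase, was not called without day 3 replicate 2, where its log2 fold change of 0.998 lay just under the limit.

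Some genes that sense sterols rose as well. Of 15 genes for sensing, uptake and efflux 4 rose and none fell (median 0.74). INSIG1, which retains the SREBP complex in the endoplasmic reticulum and is itself an SREBP target, had 1409, 1391 and 1387 normalized reads at day 3, against 172, 150.4 and 168 at day 0 (log2 fold change 3.09 ± 0.11, adjusted p = 6.48e-07). SREBF2, which encodes SREBP2, had 1747, 2079.9 and 1446 at day 3, against 511, 504 and 555 at day 0 (log2 fold change 1.73 ± 0.14), and SREBF1, which encodes SREBP1, had 1347, 1388 and 1357 at day 3, against 627, 679.9 and 632 at day 0 (log2 fold change 1.08 ± 0.10). The days did not overlap for any of these, as for 1074 of the 1080 called genes. NR1H3, an oxysterol receptor, was the other that rose (1.21).

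**Figure D2:**
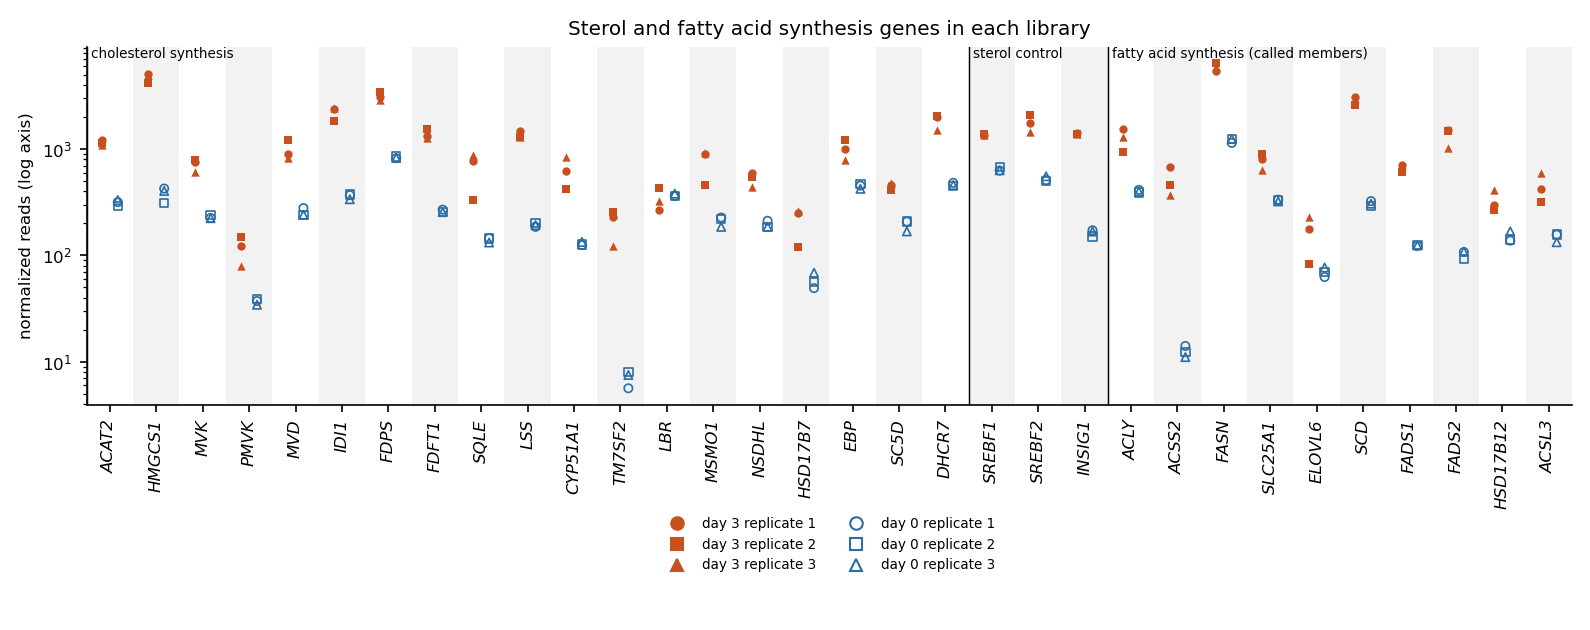
Normalized reads (log axis) of 19 cholesterol synthesis enzymes in pathway order, 3 sterol control genes and the 10 called fatty acid genes in each library. Filled orange symbols are the 3 day 3 libraries, drawn left of the open blue symbols of the 3 day 0 libraries; the days overlap for LBR and for no other gene shown.

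Fatty acid genes rose in part. Of 24 fatty acid and triglyceride genes 10 rose and none fell (median 0.66): 4 of 7 that make fatty acids, 5 of 10 that elongate and desaturate them and 1 of 7 that activate and store them. ACLY, which makes cytosolic acetyl-CoA from citrate, had 1547, 941 and 1289 normalized reads at day 3, against 413, 389.8 and 399.9 at day 0 (log2 fold change 1.62 ± 0.17). ACSS2, which makes it from acetate, had 674, 464 and 371 at day 3, against 14.1, 12.3 and 11.1 at day 0 (log2 fold change 5.19 ± 0.23, adjusted p = 1.88e-06), the largest rise among genes with a symbol. FASN, the fatty acid synthase, had 5378, 6419.7 and 5857 at day 3, against 1143, 1236 and 1245 at day 0 (log2 fold change 2.28 ± 0.11). None of the 3 overlapped between the days, nor did 1074 of the 1080 called genes. The front-end desaturases FADS1 and FADS2, which make polyunsaturated fatty acids, had 704, 614 and 716 at day 3, against 123, 125 and 124 at day 0, and 1497, 1478 and 1014 at day 3, against 108, 92.3 and 109 at day 0, with log2 fold changes of 2.44 and 3.66. The activating gene that rose was the acyl-CoA synthetase ACSL3 (1.53). The elongase ELOVL6 rose by 1.10 but was not called without any 1 of the 6 libraries except day 3 replicate 2, with log2 fold changes of 0.79 to 1.17, and HSD17B12 of the same cycle reached 0.92 without day 3 replicate 3. Without day 3 replicate 3, 1 gene of this list fell. Of 18 fatty acid oxidation genes 1 rose, the pyruvate dehydrogenase kinase PDK4 (1.57), none fell (1 without day 3 replicate 2), and the median was 0.07. Of 11 adipocyte and lipid droplet genes 3 rose and none fell: the fatty acid binding protein FABP3 (2.80) and the lipases LIPE (1.24) and PNPLA2 (1.07). PNPLA2 was not called without day 3 replicate 1 (0.98) or replicate 2 (0.95). PPARG, the adipocyte master regulator, had 675, 599.7 and 594 reads at day 3, against 549.9, 574 and 596 at day 0, and was not called.

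Most genes of the amino acid response fell. Of 34 tested, 20 fell and 2 rose, with a median of −1.18, and 5 had positive fold changes. ATF4 itself, the transcription factor of the response, had 2329, 2601 and 2392 normalized reads at day 3, against 4665, 4815 and 4729 at day 0, a difference without overlap that stopped short of the fold limit (log2 fold change −0.96 ± 0.10, adjusted p = 0.000187). Of 13 transcription factor and feedback genes, ATF4 included, 8 fell. ATF3 had 44.5, 48.3 and 51.8 at day 3, against 177, 177 and 182 at day 0 (log2 fold change −1.87 ± 0.15), and the pseudokinase TRIB3, which restrains ATF4, had 67.4, 63.4 and 104 at day 3, against 277, 295 and 323 at day 0 (log2 fold change −1.95 ± 0.20). DDIT3, a stress transcription factor, lay at the limit (−1.005) and was not called without day 3 replicate 3 (−0.91), day 0 replicate 2 (−0.999) or day 0 replicate 3 (−0.99).

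Most of the enzymes and transporters tested also fell. Of 11 amino acid synthesis genes 7 fell and none rose, with all 11 between −1.80 and −0.11. PSAT1, which makes phosphoserine on the way to serine, had 279, 398 and 353 normalized reads at day 3, against 1252, 1186 and 974 at day 0 (log2 fold change −1.73 ± 0.16, adjusted p = 0.000126). PCK2, the mitochondrial PEP carboxykinase, had 622, 606 and 439 at day 3, against 1733, 1758 and 1798 at day 0 (log2 fold change −1.68 ± 0.14). The days did not overlap for either, as for 1074 of the 1080 called genes. Of 6 transporters 4 fell: SLC7A5, the light chain of the leucine carrier, had 265, 425 and 339 at day 3, against 1089.96, 1053 and 1054 at day 0 (log2 fold change −1.66 ± 0.16), its heavy chain SLC3A2 fell (log2 fold change −1.54), and the glutamine carrier SLC1A5 had 513, 789 and 689 at day 3, against 2221, 2299 and 2159 at day 0 (log2 fold change −1.77 ± 0.15). The 2 that rose were DDIT4, an inhibitor of mTORC1 that is also induced by glucocorticoids and hypoxia, with 1865, 1812 and 1346 at day 3, against 700.4, 772 and 805 at day 0 (log2 fold change 1.13 ± 0.14), and the glycine carrier SLC6A9 (1.01). SLC6A9 was not called without day 3 replicate 1 (0.92), day 3 replicate 2 (0.84), day 0 replicate 1 (0.92) or day 0 replicate 2 (0.995). Aminoacyl tRNA synthetases, several of which ATF4 also controls, had a median of −0.60. Of 18, only the isoleucine enzyme IARS fell by the test, with 219, 153 and 259 at day 3, against 499, 495 and 480.4 at day 0 (log2 fold change −1.25 ± 0.18), and none rose.

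**Figure D3:**
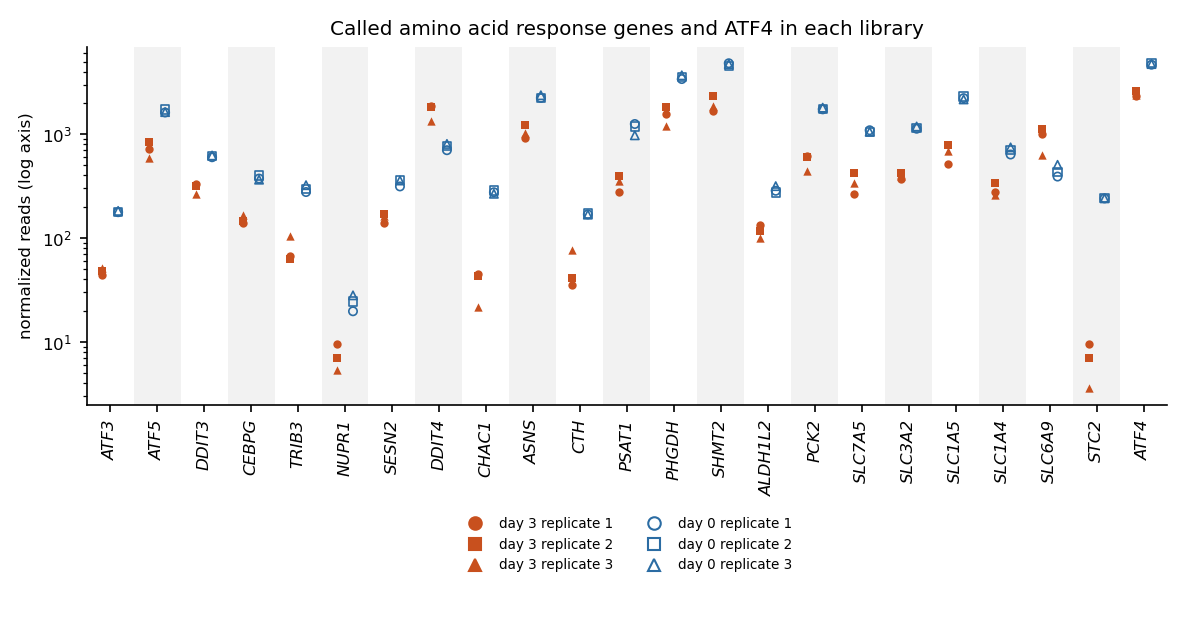
Normalized reads (log axis) of the 22 called amino acid response genes and of ATF4, which was not called, in each library. Day 3 libraries (filled, left) lie below day 0 libraries (open, right) for all but DDIT4 and SLC6A9.

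Hypoxia genes fell in part. Of 22 tested, 10 fell, 2 rose and 10 were not called (median −0.84). ANKRD37, a small ankyrin protein induced by HIF1, had 0.674, 4.02 and 5.36 normalized reads at day 3, against 55.6, 69.3 and 60.8 at day 0 (log2 fold change −4.06 ± 0.46, adjusted p = 0.000394). BNIP3, which targets mitochondria to autophagy, had 16.2, 19.1 and 23.2 at day 3, against 73.8, 87.99 and 76.2 at day 0 (log2 fold change −1.98 ± 0.21), and the oxygen sensor EGLN3 had 4.04, 4.02 and 1.79 at day 3, against 21.1, 22.9 and 21.3 at day 0 (log2 fold change −2.46 ± 0.33). PDK1, which shuts pyruvate out of mitochondria, had 144, 114 and 116 at day 3, against 364, 363 and 354 at day 0 (log2 fold change −1.53 ± 0.13). All 4 separated the days, as did 1074 of the 1080 called genes. NDUFA4L2, a mitochondrial protein known as a HIF1 target and not on the list, was the third largest fall of a gene with a symbol, with 10.1, 16.1 and 7.14 at day 3, against 229.9, 256 and 279 at day 0 (log2 fold change −4.46 ± 0.27, adjusted p = 1.07e-05). The 2 that rose were DDIT4 and STC1, a secreted glycoprotein, which had 31.7, 31.2 and 48.2 at day 3, against 0.703, 1.6 and 2.37 at day 0 (log2 fold change 3.92 ± 0.36). VEGFA, the classical target, had 142, 184 and 193 at day 3, against 214, 249 and 209 at day 0 and was not called. Leaving out day 3 replicate 2 ended the call of P4HA1, a collagen prolyl hydroxylase (−0.82). HIF1A itself had 290.3, 66.4 and 352 at day 3, against 177, 180.2 and 182 at day 0: day 3 replicate 2 was far below day 0 and the other two were above it.

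In glycolysis the largest falls were those of sugar and lactate carriers. Of 23 genes 5 fell and 2 rose (median −0.32). SLC16A3, the lactate exporter MCT4, had 26.9, 27.2 and 30.3 normalized reads at day 3, against 374, 337 and 300.01 at day 0 (log2 fold change −3.53 ± 0.15, adjusted p = 1.61e-06), and SLC16A1, the carrier MCT1, had 118, 83.5 and 137 at day 3, against 361, 353 and 339.9 at day 0 (log2 fold change −1.66 ± 0.18). Among glucose carriers, SLC2A3 (GLUT3) had 107, 145 and 145 at day 3, against 802, 835 and 756 at day 0 (log2 fold change −2.60 ± 0.14). SLC2A4 (GLUT4), the insulin-responsive carrier of muscle and fat, which was named for its size of change and was not on the list, had 150.2, 158 and 161 at day 3, against 10.5, 15.5 and 12.2 at day 0 (log2 fold change 3.53 ± 0.20, adjusted p = 6.16e-06). SLC2A3 and SLC2A4 changed in opposite directions. The days did not overlap for SLC2A3, as for 45.1% of all genes, while SLC2A4 was picked from genes without overlap. SLC2A1 (GLUT1) had 271, 292 and 259 at day 3, against 512, 526 and 523 at day 0 and was not called. Of the enzymes, HK2, the inducible hexokinase (−1.09), and LDHA, lactate dehydrogenase (−1.07), fell, while ALDOC, an aldolase (1.11), and PFKFB4, which makes the activator of phosphofructokinase (1.48), rose. HK2 and ALDOC were not called without day 3 replicate 1 (−0.92 and 0.92), nor LDHA without day 3 replicate 2 (−0.94). The 75 subunits of oxidative phosphorylation had a median of −0.02. None was called by limma, edgeR or DESeq2, and 11 had an unadjusted p under 0.05, against 4256 of all 10683 genes tested. Leaving out 1 library gave at most 2 that fell, both without day 3 replicate 3, and array weights gave 1.

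Proliferation genes were lower at day 3, most of them by less than 2-fold. All 38 DNA replication genes had negative fold changes (median −0.89) and 13 fell. At the adjusted p without regard to fold, 31 were lower, against 13.1% of all genes. MCM3, a subunit of the replicative helicase, had 280.2, 322 and 405 normalized reads at day 3, against 950.02, 963 and 982 at day 0 (log2 fold change −1.54 ± 0.14, adjusted p = 0.000138). RRM2, the regulated subunit of ribonucleotide reductase, had 503, 398 and 853 at day 3, against 1738, 1712 and 1589 at day 0 (log2 fold change −1.59 ± 0.24), with day 3 replicate 3 the highest of its day. GMNN, which prevents a second round of licensing, had 137, 103 and 139 at day 3, against 375, 363 and 336 at day 0 (log2 fold change −1.51 ± 0.15). Of 37 mitosis genes 6 fell and none rose, with a median of −0.78 and 36 below 0. At the adjusted p without regard to fold, 26 of the 37 were lower. CDK1, the mitotic kinase, fell (log2 fold change −1.13), as did the cyclin CCNA2 that activates it (−1.296). MKI67, the proliferation marker, had 729, 1067 and 1060.4 at day 3, against 1342, 1772 and 1702 at day 0 and was not called (log2 fold change −0.76 ± 0.17, adjusted p = 0.0115). The mitosis count rested on the day 3 replicates: without replicate 3, 17 genes fell, and the deviations of the list from its day 3 mean averaged −0.11, −0.23 and 0.34 for replicates 1, 2 and 3. CDK1 was not called without day 3 replicate 2 (−0.92), nor CCNA2 without day 3 replicate 1 (−1.26), day 3 replicate 2 (−0.95), day 0 replicate 1 (−1.24) or day 0 replicate 3 (−1.297). At the entry to the cycle, the D-type cyclin CCND1, which mitogens induce, rose, with 1402, 2348 and 1755 at day 3, against 866, 643 and 715 at day 0 (log2 fold change 1.29 ± 0.19), while the E-type cyclin CCNE2 fell, with 18.2, 21.1 and 28.6 at day 3, against 73.8, 69.9 and 65.1 at day 0 (log2 fold change −1.60 ± 0.22). Of 22 G1 genes these were the 1 that rose and 1 of the 2 that fell. The other, the kinase CDK2 (−1.03), was not called without day 3 replicate 3 (−0.99) or day 0 replicate 1 (−0.999), and without day 3 replicate 3 the list had 2 genes that rose and 3 that fell.

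Genes of the protein synthesis machinery were mostly lower, few of them by 2-fold. All 24 ribosome biogenesis genes were below 0 (median −0.67), of which 2 fell, and 15 were lower at the adjusted p without regard to fold, as were 13.1% of all genes. GNL3, a nucleolar GTPase, had 164, 138 and 182 normalized reads at day 3, against 380.4, 371 and 349 at day 0 (log2 fold change −1.189 ± 0.14). NIP7, a factor for the large subunit, was the other (−1.29). Without day 3 replicate 3, 6 genes fell, and without day 0 replicate 2 only GNL3 did. NIP7 was also not called without day 3 replicate 2 (−0.89), day 0 replicate 1 (−1.25) or day 0 replicate 3 (−1.32). The 82 cytosolic ribosomal protein genes had a median of −0.26, with 81 below 0, 5 fallen and none risen, and 21 were lower at the adjusted p without regard to fold. RPL7 and RPS3A were among the 5, with 96.3, 69.4 and 118 at day 3, against 352, 465 and 209.6 at day 0, and 469, 352 and 386 at day 3, against 1464, 1419.6 and 791 at day 0. Their day 0 replicate 3 was lowest of its day. Reads of such genes can be shared with near-identical copies, so these calls are uncertain, and 3 fell without day 0 replicate 1 or replicate 2. The 37 proteasome subunits had a median of −0.16. None was called by limma, edgeR or DESeq2, and 1 fell without day 3 replicate 3. At an unadjusted p under 0.05, 15 of the 37 passed, against 4256 of all 10683 genes tested.

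Growth factor pathways changed in part. Of 16 genes of FGF and ERK feedback 6 rose, 2 fell and 8 were not called (median 0.72). DUSP6, the ERK phosphatase, had 793, 835 and 853 normalized reads at day 3, against 231, 245 and 274 at day 0 (log2 fold change 1.72 ± 0.11, adjusted p = 1.57e-05), and SPRY2, which blocks receptor signalling upstream of ERK, had 335, 265 and 275 at day 3, against 64.7, 65.6 and 76.2 at day 0 (log2 fold change 2.06 ± 0.15). DUSP4, a nuclear phosphatase, had 12.1, 15.1 and 12.5 at day 3, against 4.92, 4.27 and 3.55 at day 0 (log2 fold change 1.44 ± 0.30). Of the receptors, FGFR2 fell, with 4.72, 3.02 and 3.57 at day 3, against 39.4, 38.4 and 36.7 at day 0 (log2 fold change −3.05 ± 0.26), and FGFR3 fell (log2 fold change −1.75). FGFR1 had 71.4, 122 and 146 at day 3, against 109, 126 and 130.3 at day 0, with overlapping libraries. FGFR3 was not called without day 0 replicate 1 (−1.83), 2 (−1.80) or 3 (−1.62). SPRY4 (2.01) was not called without day 3 replicate 1 (1.63), day 0 replicate 1 (1.93) or day 0 replicate 3 (1.80). The inhibitor SPRY1 (1.03) was not called without day 3 replicate 1 (0.94) or 3 (0.87), or without day 0 replicate 2 (1.01) or 3 (0.96), and the phosphatase DUSP5 (1.16) not without day 0 replicate 1 (1.10) or 3 (1.08). The list then had 3 genes that rose without day 0 replicate 3.

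Targets of FOXO transcription factors, which insulin and IGF signalling keep out of the nucleus, rose in 7 of 11 cases with none fallen (median 1.48). PIK3IP1, an inhibitor of PI3 kinase, had 218, 203 and 161 normalized reads at day 3, against 17.6, 21.3 and 20.1 at day 0 (log2 fold change 3.23 ± 0.19, adjusted p = 7.84e-06). FBXO32, the ubiquitin ligase atrogin-1 known from muscle wasting, had 60.6, 53.3 and 53.6 at day 3, against 6.33, 6.93 and 7.89 at day 0 (log2 fold change 2.82 ± 0.22). FOXO4, itself a member of the family, had 52.5, 34.2 and 28.6 at day 3, against 11.95, 15.5 and 13.8 at day 0 (log2 fold change 1.38 ± 0.27). PDK4 and the leucine zipper protein TSC22D3, also counted here, are glucocorticoid targets too. TXNIP, which limits glucose uptake, had 233, 241 and 164 at day 3, against 115, 118 and 136 at day 0 and was not called. The calls of KLHL24, without day 3 replicate 1 (1.32) or day 0 replicate 1 (1.53), and of SESN1, without day 0 replicate 3 (1.53), ended. In the IGF axis itself 2 of 11 genes fell and 1 rose (median −0.29). The ligand IGF2 had 28.3, 22.1 and 24.99 at day 3, against 96.3, 97.1 and 96.7 at day 0 (log2 fold change −1.91 ± 0.18, adjusted p = 0.000134), and the receptor IGF1R had 64.7, 91.6 and 46.4 at day 3, against 76.6, 74.1 and 71.1 at day 0 with overlap. IGFBP6, which binds IGF2, was the gene that rose (1.14). It was not called without day 3 replicate 1 (0.98), day 3 replicate 2 (0.90), day 0 replicate 1 (1.204) or day 0 replicate 2 (0.93). Among 7 VEGF ligands and receptors, FLT1, the decoy receptor, had 24.3, 33.2 and 39.3 at day 3, against 101, 103 and 97.5 at day 0 (log2 fold change −1.64 ± 0.21), the ligand VEGFC fell (log2 fold change −1.23), and the ligand PGF rose (1.194). The PGF call ended without any 1 of the libraries other than day 3 replicate 3 (0.82 to 1.298).

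Of 16 known targets of the glucocorticoid receptor 7 rose and 1 fell (median 0.39). The median was 0.17 without day 3 replicate 1, 0.16 without day 0 replicate 3, 0.63 without day 3 replicate 3 and 0.64 without day 0 replicate 1, with 7 risen in each. FKBP5, a chaperone of the receptor, had 721, 687 and 664 normalized reads at day 3, against 166, 151 and 192 at day 0 (log2 fold change 2.02 ± 0.12, adjusted p = 1.11e-05). PER1, which is both a clock gene and a direct target, had 631, 591 and 434 at day 3, against 56.96, 64.5 and 67.9 at day 0 (log2 fold change 3.09 ± 0.17), and TSC22D3, which mediates anti-inflammatory effects, had 82.9, 64.4 and 42.8 at day 3, against 23.2, 24.5 and 16.97 at day 0 (log2 fold change 1.48 ± 0.27). NFKBIA, the inhibitor of NF-kappaB, had 393, 467 and 430.2 at day 3, against 169, 166 and 159 at day 0 (log2 fold change 1.38 ± 0.12). All separated the days, as did 1074 of the 1080 called genes. The metallothionein MT2A rose (1.37), though its reads may be shared with related copies. ANXA1, an annexin that glucocorticoids raise in leukocytes, fell, with 737, 413 and 582 at day 3, against 1728, 1829 and 1447 at day 0 (log2 fold change −1.56 ± 0.20), and without day 3 replicate 3 a second member fell. In the circadian clock 1 of 15 genes rose, PER1, and 2 fell (median −0.35): HLF, an output transcription factor (−1.54), and the repressor CIART (−1.48). CIART was not called without day 3 replicate 3 (−0.98) or day 0 replicate 1 (−1.48), 2 (−1.53) or 3 (−1.42), and without day 3 replicate 3 a second clock gene rose.

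Immediate early genes, which serum and adhesion induce within minutes, were mostly lower. Of 19, 6 fell and 2 rose (median −0.54). EGR1, a zinc finger factor, had 136, 105 and 94.6 normalized reads at day 3, against 628, 716 and 678 at day 0 (log2 fold change −2.60 ± 0.15). JUN, a subunit of AP-1, had 479.6, 523 and 599.8 at day 3, against 1941, 1823 and 1905 at day 0 (log2 fold change −1.83 ± 0.11, adjusted p = 1.22e-05), and its partner FOSL1 had 144, 174 and 171 at day 3, against 519, 526 and 438 at day 0 (log2 fold change −1.59 ± 0.13). FOS had 17.5, 18.1 and 24.99 at day 3, against 37.3, 37.9 and 45.4 at day 0 and was not called. The 2 that rose were orphan nuclear receptors: NR4A1 had 290.3, 263 and 234 at day 3, against 73.8, 77.3 and 94.7 at day 0 (log2 fold change 1.67 ± 0.16), and NR4A2 rose (log2 fold change 1.61). FOSL2 (−1.07) was not called without day 3 replicate 1 (−1.10) or 3 (−0.90), or without day 0 replicate 1 (−0.98) or 2 (−0.90).

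Some genes tied to adhesion and tension fell. Of 18 YAP targets 7 fell, none rose and 6 had positive fold changes (median −0.57). ANKRD1, a titin-binding ankyrin protein and a classical target, had 39.7, 44.3 and 53.6 normalized reads at day 3, against 1145, 1189 and 1099 at day 0 (log2 fold change −4.62 ± 0.14, adjusted p = 6.48e-07). CYR61, a matricellular protein of the CCN family, had 2216, 2336 and 3047 at day 3, against 6758, 6656 and 6351 at day 0 (log2 fold change −1.39 ± 0.13), while its family member CTGF had 6431, 3996 and 7823 at day 3, against 8273, 7537 and 6822 at day 0, with overlapping libraries (log2 fold change −0.36 ± 0.22, adjusted p = 0.255). A pair of other CCN genes, not on the list, were among the 20 largest falls: NOV had 114, 97.6 and 132 at day 3, against 1249, 1147 and 1211 at day 0 (log2 fold change −3.39 ± 0.13), and WISP2 had 210.2, 241 and 198 at day 3, against 2013, 1825 and 1798 at day 0 (log2 fold change −3.11 ± 0.12). The call of AJUBA ended without any 1 of the libraries other than day 3 replicate 3 (−1.36 to −1.01), and that of CRIM1 without day 3 replicate 2 (−0.95). Of 26 SRF and smooth muscle genes 3 fell and none rose (median −0.30). MYH11, the smooth muscle myosin, had 6.06, 7.04 and 3.57 at day 3, against 19.7, 18.1 and 21.7 at day 0 (log2 fold change −1.70 ± 0.31), and ACTA2, smooth muscle actin, had 13227, 15213 and 15122 at day 3, against 29929, 27768 and 25612 at day 0 with no overlap and no call (log2 fold change −0.94 ± 0.11, adjusted p = 0.00037). The myosin kinase MYLK (−1.07) and the calponin CNN1 (−1.01) were not called without day 3 replicate 1 (−0.999 and −0.94), so that only MYH11 fell. CNN1 also fell short without day 3 replicate 3 (−0.98), day 0 replicate 1 (−0.96) or day 0 replicate 3 (−0.99).

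Signalling of the TGF-beta family changed in ligand, feedback and target genes. Of 25 tested, 10 fell and none rose (median −0.33, with 11 above 0). TGFB2, a ligand, had 12.1, 21.1 and 12.5 normalized reads at day 3, against 71.02, 56.5 and 75.4 at day 0 (log2 fold change −2.11 ± 0.26, adjusted p = 0.000588), and LTBP1, which stores latent TGF-beta in the matrix, had 49.2, 36.2 and 53.6 at day 3, against 106, 119 and 98.3 at day 0 (log2 fold change −1.22 ± 0.19). ID2, a BMP target that inhibits bHLH factors, had 209, 177 and 230.3 at day 3, against 823, 815 and 835 at day 0 (log2 fold change −2.01 ± 0.12), and the inhibitory SMAD6 had 41.1, 45.3 and 55.3 at day 3, against 121, 148 and 142 at day 0 (log2 fold change −1.52 ± 0.18). Each of these separated the days, as did 1074 of the 1080 called genes. Of the 10, 5 were each called in only some of the fits that left out 1 library. The count that fell was 6 without day 3 replicate 1 and 5 without day 0 replicate 2, and 1 gene rose without day 3 replicate 1, day 3 replicate 2 or day 0 replicate 3. SMOC1, a secreted BMP modulator named for its size of change, had 312, 357 and 257 at day 3, against 2325, 2226 and 2322 at day 0 (log2 fold change −2.90 ± 0.13).

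Enzymes that modify collagen were among the genes that fell. Of 25 processing genes 6 fell and 1 rose (median −0.14). The cross-linking enzymes LOX and LOXL2 had 432, 367 and 516 at day 3, against 1782, 1764 and 1628 at day 0, and 1035, 1079.7 and 1143 at day 3, against 4267, 4306 and 4105 at day 0, with log2 fold changes of −1.99 and −1.96. P3H2, a prolyl 3-hydroxylase, had 119, 115 and 132 at day 3, against 476, 475 and 515 at day 0 (log2 fold change −1.997 ± 0.12, adjusted p = 9.43e-06). PLOD2, a lysyl hydroxylase, had 214, 86.5 and 295 at day 3, against 591, 578 and 585 at day 0 (log2 fold change −1.72 ± 0.37), with day 3 replicate 2 well below the other two. The gene that rose was P4HA3, a subunit of prolyl 4-hydroxylase, with 456, 361 and 299.9 at day 3, against 16.9, 18.7 and 18.9 at day 0 (log2 fold change 4.26 ± 0.19). Of 20 collagen chains 3 fell and 1 rose (median −0.27). COL11A1, a fibril-nucleating chain, had 296, 189 and 316 at day 3, against 603, 662 and 671 at day 0 (log2 fold change −1.303 ± 0.19), and COL27A1, a cartilage-type fibrillar chain, had 319, 289 and 227 at day 3, against 97.04, 87.5 and 122 at day 0 (log2 fold change 1.44 ± 0.18). COL1A1, the main chain of type I collagen, had 33305, 30897 and 34016 at day 3, against 47451, 44880.3 and 46676 at day 0 and was not called (log2 fold change −0.50 ± 0.09, adjusted p = 0.00429). COL1A2 (−1.01) and COL3A1 (−1.005) lay at the limit: without day 3 replicate 3 (−0.95 and −0.97) or day 0 replicate 2 (−0.999 and −0.99) neither was called and 1 chain fell. Without day 0 replicate 1, 2 chains rose. Both were also short of the limit without day 3 replicate 2 (−0.93 and −0.80), and COL3A1 without day 0 replicate 3 (−0.96). The number of chains that fell was also 1 after rescaling or quantile normalization and with edgeR or DESeq2. Among 15 matrix proteases and inhibitors 3 fell and 1 rose, the protease inhibitor SERPINE2, with 13095, 9774 and 12196 at day 3, against 3203, 3402 and 2864 at day 0 (log2 fold change 1.88 ± 0.13). Without day 3 replicate 3 a second one rose. HTRA3, a secreted serine protease outside the list, had 151, 184 and 111 at day 3, against 2758, 2389.6 and 2609 at day 0 (log2 fold change −4.14 ± 0.18).

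In the NOTCH pathway a receptor and the transcription factor rose and a pair of target genes fell: of 11 genes 2 rose and 2 fell (median −0.74). NOTCH3, a receptor typical of mural cells, had 391, 374 and 271 normalized reads at day 3, against 78.1, 83.7 and 101 at day 0 (log2 fold change 1.96 ± 0.18, adjusted p = 0.000127), and RBPJ, the DNA-binding factor of the pathway, had 863, 1160.2 and 1073 at day 3, against 288, 243 and 311 at day 0 (log2 fold change 1.87 ± 0.15). HEYL, a repressor downstream of both, had 3.37, 3.02 and 7.14 at day 3, against 21.1, 23.5 and 30.8 at day 0 (log2 fold change −2.30 ± 0.35), and HES1 had 55.9, 73.5 and 74.98 at day 3, against 150.5, 156 and 139 at day 0 (log2 fold change −1.12 ± 0.17). HES1 was not called without day 3 replicate 1 (−0.99), which left 1 gene fallen, and 4 fell without day 3 replicate 3. Of 14 WNT pathway genes 3 fell and none rose (median −0.21), led by SFRP2, a secreted WNT modulator, with 26.9, 22.1 and 46.4 at day 3, against 148, 153 and 159 at day 0 (log2 fold change −2.30 ± 0.26), and the receptor FZD1, with 40.4, 41.3 and 44.6 at day 3, against 115, 114 and 118 at day 0 (log2 fold change −1.44 ± 0.15). The ligand WNT2B (−1.06) was called only with day 3 replicate 1 and all 3 day 0 libraries in the fit (−1.12 to −0.67 otherwise).

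**Figure D4:**
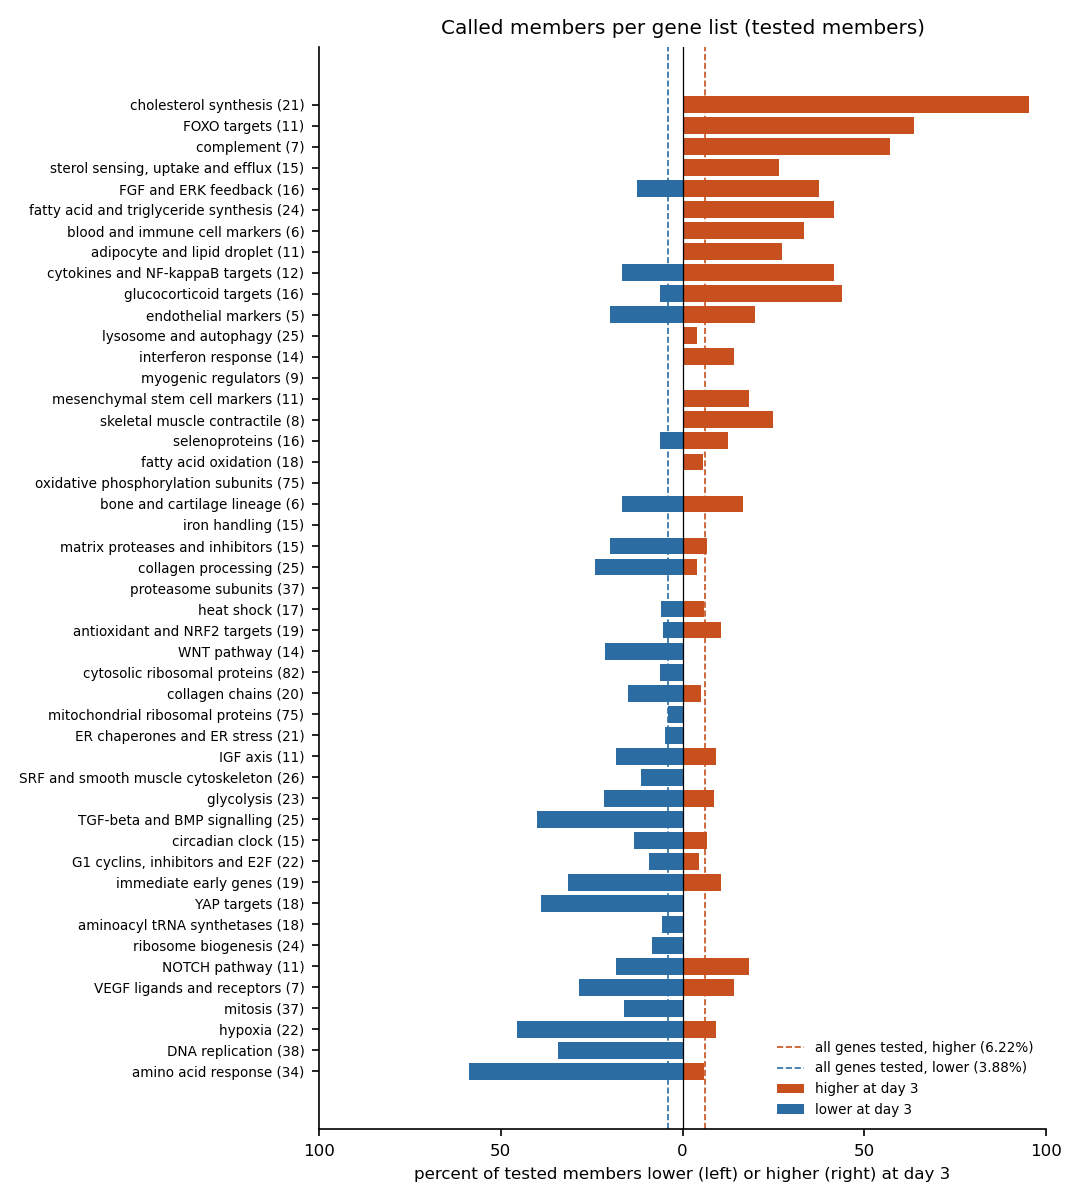
Percent of the tested members (number in brackets) of each gene list that rose (orange, right) or fell (blue, left) at day 3 relative to day 0, ordered by median log2 fold change. Dashed lines mark the 6.22% and 3.88% of all 10683 genes, so that cholesterol synthesis (20 of 21 higher) and the amino acid response (20 of 34 lower) stand at the ends.

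Chemokines and complement genes rose in part. Of 12 cytokine and NF-kappaB genes 5 rose and 2 fell (median 0.55). CCL2, which attracts monocytes, had 460.1, 307 and 257 normalized reads at day 3, against 12.7, 15.5 and 13.03 at day 0 (log2 fold change 4.50 ± 0.23, adjusted p = 4.08e-06). CXCL12, the stromal chemokine, had 6802, 5475 and 6330.2 at day 3, against 2372, 2544 and 2386 at day 0 (log2 fold change 1.34 ± 0.11), and the cytokine IL6 had 35.7, 35.2 and 44.6 at day 3, against 12.7, 17.6 and 15.4 at day 0 (log2 fold change 1.29 ± 0.23). CXCL5, a neutrophil chemokine, fell, with 238, 134 and 216 at day 3, against 595, 670.3 and 692 at day 0 (log2 fold change −1.77 ± 0.20). TNFAIP3, an inhibitor of NF-kappaB, also fell (−1.39) but was not called without day 0 replicate 1 (−1.34), 2 (−1.44) or 3 (−1.41). CCL26, an eosinophil chemokine, had 37 reads at day 3 and 1 at day 0; its normalized ratio was 71.0 with a 95% exact counting interval of 12.0 to 2879. Of 7 complement genes 4 rose and none fell (median 1.17). MASP1, a protease of the lectin pathway, had 158, 179 and 177 at day 3, against 30.9, 27.2 and 33.2 at day 0 (log2 fold change 2.46 ± 0.16), CLU, which guards against lysis, had 353, 304 and 216 at day 3, against 99.2, 98.1 and 97.5 at day 0 (log2 fold change 1.53 ± 0.18), and C1S, a protease of the first component, had 8.76, 12.1 and 12.5 at day 3, against 4.22, 1.6 and 1.97 at day 0 (log2 fold change 1.81 ± 0.39). C3, the central component, rose by 1.17 but was called in the leave-one-out fits only without day 3 replicate 3 (0.90 to 1.22 in the others). Of 14 interferon genes 2 rose and none fell (median 0.27), among them IFIT3, with 24.3, 25.2 and 14.3 at day 3, against 2.11, 1.07 and 1.58 at day 0 (log2 fold change 3.08 ± 0.36).

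A pair of immune cell markers also rose. Of 6 blood and immune markers tested 2 rose: CD14, the monocyte lipopolysaccharide receptor, had 14.8, 16.1 and 7.14 normalized reads at day 3, against 0.703, 0.533 and 1.58 at day 0 (log2 fold change 2.78 ± 0.44), and LAPTM5, a lysosomal protein of leukocytes, had 10.1, 10.1 and 5.36 at day 3, against 3.52, 0.533 and 2.37 at day 0 (log2 fold change 1.69 ± 0.49). LAPTM5 was not called without day 3 replicate 1 (1.55), day 3 replicate 2 (1.56), day 0 replicate 2 (1.24) or day 0 replicate 3 (1.81). SPI1, which specifies myeloid cells, had 2.69, 4.02 and 0 at day 3, against 2.81, 2.67 and 3.95 at day 0 and was under the minimum. The summed level of the 6 was 103, 79.5 and 46.4 at day 3, against 47.8, 42.1 and 45.4 at day 0. Day 3 replicate 3 thus lay within the day 0 range for this sum, though its CD14 and LAPTM5 were above every day 0 library, as was its CCL2. The part of the markers in the rises of chemokine and complement genes was not tested. Of 5 endothelial markers VWF, a clotting factor carrier, rose, with 28.97, 18.1 and 21.4 at day 3, against 5.63, 4.8 and 7.11 at day 0 (log2 fold change 1.79 ± 0.29), and FLT1 fell. Of the 11 stem cell markers tested 2 rose and none fell (median 0.24): PDGFRB, a receptor of stromal and mural cells, had 119, 84.5 and 92.8 at day 3, against 44.3, 42.1 and 56.4 at day 0 (log2 fold change 1.03 ± 0.20), and the calcium-binding S100A4 had 65564, 73190.5 and 44165 at day 3, against 29271, 24279 and 27969 at day 0 (log2 fold change 1.14 ± 0.18). S100A4 was not called without day 3 replicate 2 (0.99), and PDGFRB without day 3 replicate 1 (0.89) or day 0 replicate 1 (0.99) or 2 (0.95).

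Few muscle genes, the aim of the medium, passed the test at day 3. Of 9 myogenic regulators tested none was called in limma (median 0.25). MEF2C, a muscle transcription factor, had 61.97, 65.4 and 58.9 normalized reads at day 3, against 27.4, 36.3 and 30.8 at day 0 (log2 fold change 0.97 ± 0.19, adjusted p = 0.00559), and MYF6, a late muscle factor, had 8.08, 9.06 and 7.14 at day 3, against 3.52, 4.8 and 2.76 at day 0 (log2 fold change 0.97 ± 0.34, adjusted p = 0.0635). The days did not overlap for either, as for 45.1% of all genes. Both stopped short of the fold limit, and MYF6 also missed the adjusted p limit. At an unadjusted p under 0.05, 6 of the 9 passed, as did 4256 of all 10683 genes. At the adjusted p without regard to fold, 3 of the 9 were higher and 1 lower, against 13.6% and 13.1% of all genes. The number that rose was 1 without day 3 replicate 1, day 0 replicate 1 or day 0 replicate 2, and 2 without day 3 replicate 3. It was 2 with edgeR and 1 with DESeq2 on recovered reads, 1 with a pseudocount of 0.5 and 2 once totals were equalized. Of 48 genes of the skeletal muscle contractile apparatus 17 were analysed and 8 tested, of which 2 rose and none fell (median 0.20). The median rested on single day 3 libraries, at 0.82 without replicate 3 and −0.024 without replicate 2, and was 0.69 with edgeR. ACTN3, the fast-fibre actinin, had 43.8, 66.4 and 37.5 at day 3, against 23.9, 20.3 and 24.1 at day 0 (log2 fold change 1.04 ± 0.25, adjusted p = 0.0143), and ATP2A1, the calcium pump of fast fibres, had 13.5, 8.05 and 7.14 at day 3, against 2.81, 4.8 and 3.16 at day 0 (log2 fold change 1.18 ± 0.37, adjusted p = 0.0441). Both calls were unstable. ACTN3 was not called without day 3 replicate 2 (0.81), day 0 replicate 1 (1.08) or day 0 replicate 2 (0.97), and ATP2A1 without day 3 replicate 1 (0.93) or any day 0 replicate (1.06 to 1.36). DES, the muscle intermediate filament, had 1456, 1717 and 880.1 at day 3, against 937, 1011 and 1029 at day 0, with day 3 replicate 3 below every day 0 library and the other two above (log2 fold change 0.39 ± 0.22, adjusted p = 0.213). ACTA1, skeletal actin, had 8.08, 4.02 and 1.79 at day 3, against 7.03, 4.27 and 1.97 at day 0, below the minimum. MEOX1, a homeobox factor of the somite, was among the 20 largest rises, with 121, 116 and 92.8 at day 3, against 9.14, 5.33 and 10.3 at day 0 (log2 fold change 3.62 ± 0.26).

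Selenium, iron and stress genes were examined because the day 3 medium carried insulin, transferrin and selenium. Of 16 selenoproteins 2 rose and 1 fell (median 0.09). GPX1, the cytosolic glutathione peroxidase, had 4781, 4891 and 4429 normalized reads at day 3, against 918, 961 and 998 at day 0 (log2 fold change 2.29 ± 0.10, adjusted p = 1.49e-06), and SELENOP, a secreted selenium carrier, had 170.4, 76.5 and 130.3 at day 3, against 24.6, 26.7 and 20.53 at day 0 (log2 fold change 2.28 ± 0.29). SELENOI, an ethanolamine phosphotransferase, fell (−1.27), but not without day 3 replicate 1 (−1.10) or any 1 day 0 replicate (−1.42 to −1.06), and without day 3 replicate 2 a second one fell. None of 15 iron genes was called by limma or DESeq2 (median −0.07). At an unadjusted p under 0.05, 5 of the 15 passed, against 4256 of all 10683 genes tested. The number of iron genes that rose was 1 with edgeR or without day 3 replicate 2. It was also 1 in limma with a pseudocount of 0.5, rescaling to the same total or array weights. Of 19 antioxidant genes 2 rose, among them the extracellular superoxide dismutase SOD3, with 200.1, 172 and 109 at day 3, against 40.1, 43.2 and 44.6 at day 0 (log2 fold change 1.84 ± 0.23). The 1 that fell, OSGIN1 (−1.07), was not called without day 3 replicate 1 (−1.26), day 3 replicate 3 (−0.70) or any 1 day 0 replicate (−1.21 to −0.95), and 2 fell without day 3 replicate 2. Of 21 endoplasmic reticulum chaperones HSPA5 (BiP) alone fell, with 2421, 1893 and 3506 at day 3, against 5295, 5255 and 5141 at day 0 (log2 fold change −1.05 ± 0.19), and not without day 3 replicate 2 (−0.84), after rescaling (−0.986), with edgeR (−0.993) or with DESeq2 (−0.989). Small heat shock proteins moved in both directions, with 7440.2, 7433 and 4633 at day 3, against 2502, 2332 and 2390.2 at day 0 for CRYAB (1.40), and 208, 224 and 164 at day 3, against 859, 852 and 1007 at day 0 for HSPB7 (−2.19).

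Among the other large changes with a named product, XDH, which oxidizes purines to uric acid, had 924, 837 and 968 normalized reads at day 3, against 56.3, 61.3 and 65.9 at day 0 (log2 fold change 3.87 ± 0.12, adjusted p = 6.48e-07). PDE9A, which degrades cyclic GMP, had 536, 561 and 453 at day 3, against 32.3, 35.7 and 42.6 at day 0 (log2 fold change 3.78 ± 0.16), and SST, the peptide hormone somatostatin, had 115, 78.5 and 62.5 at day 3, against 7.03, 4.8 and 6.32 at day 0 (log2 fold change 3.58 ± 0.28). Genes named for the size of their change came only from those without overlap, so separation of the days adds nothing for these 3. PTGDR2, a prostaglandin D2 receptor, had 59 reads at day 3 and 0 at day 0, and so passed the minimum through day 3 alone. Its normalized ratio was 37.7 against a floor of 3 reads over the whole day 0 group. That ratio leaves out the counting error of the 59 reads and the spread among replicates. At the other end, THEM6, a membrane thioesterase family member, had 1 read at day 3 and 66 at day 0; its normalized ratio was 0.0291 with an interval of 0.000725 to 0.168. PTPRR, a phosphatase of MAP kinases, had 4.04, 0 and 0 at day 3, against 19.7, 21.3 and 21.7 at day 0 (log2 fold change −3.67 ± 0.61, adjusted p = 0.00264).

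The day 3 replicates were much less alike than those of day 0. The median standard deviation of log2(value + 1) per gene was 0.273 at day 3 and 0.113 at day 0, and 82.0% of genes had the larger one at day 3. Day 3 libraries were shallower, so the comparison was repeated for genes with more reads. For the 5869 genes with a mean of at least 100, counting noise is smaller but not equal between the days. There the medians were 0.218 at day 3 and 0.0789 at day 0, and 332 genes spanned at least 2-fold among day 3 replicates, against 10 among day 0 replicates. The biological coefficient of variation, which edgeR estimates beyond counting noise, was 19.7% at day 3 and 7.15% at day 0. Replicates 2 and 3 of day 3 lay farthest apart: it was 25.7% for that pair alone, and 16.5% or 17.004% for the pairs that include replicate 1.

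Of the 332 genes, 176 (53.0%) were lowest in replicate 2 and highest in replicate 3, and 100 (30.1%) the other way round. The genes with the widest day 3 range beyond their day 0 range were of the first kind. HAUS6, a subunit of the spindle's augmin complex, had 54.6, 12.1 and 92.8 normalized reads at day 3, against 63.3, 71.99 and 61.98 at day 0. The mismatch repair genes MSH3 and MSH6 had 91.6, 28.2 and 146 at day 3, against 86.5, 82.1 and 73.8 at day 0, and 57.3, 15.1 and 74.98 at day 3, against 69.6, 80.5 and 69.1 at day 0. BUB1B, a spindle checkpoint kinase, had 99.02, 41.3 and 152 at day 3, against 165, 159 and 163 at day 0. In each, replicate 2 was below every day 0 library, and for HAUS6 and MSH3 replicate 3 was above them all. SLC38A2, an amino acid carrier, had 575, 149 and 639 at day 3, against 398, 408 and 360.01 at day 0, the glycogen branching enzyme GBE1 had 60.6, 17.1 and 99.97 at day 3, against 40.8, 43.2 and 46.2 at day 0, and the integrin subunit ITGA1 had 93.6, 37.2 and 149.95 at day 3, against 102, 110.4 and 98.3 at day 0. In each of these the day 3 libraries lay on both sides of the day 0 range.

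**Figure D5:**
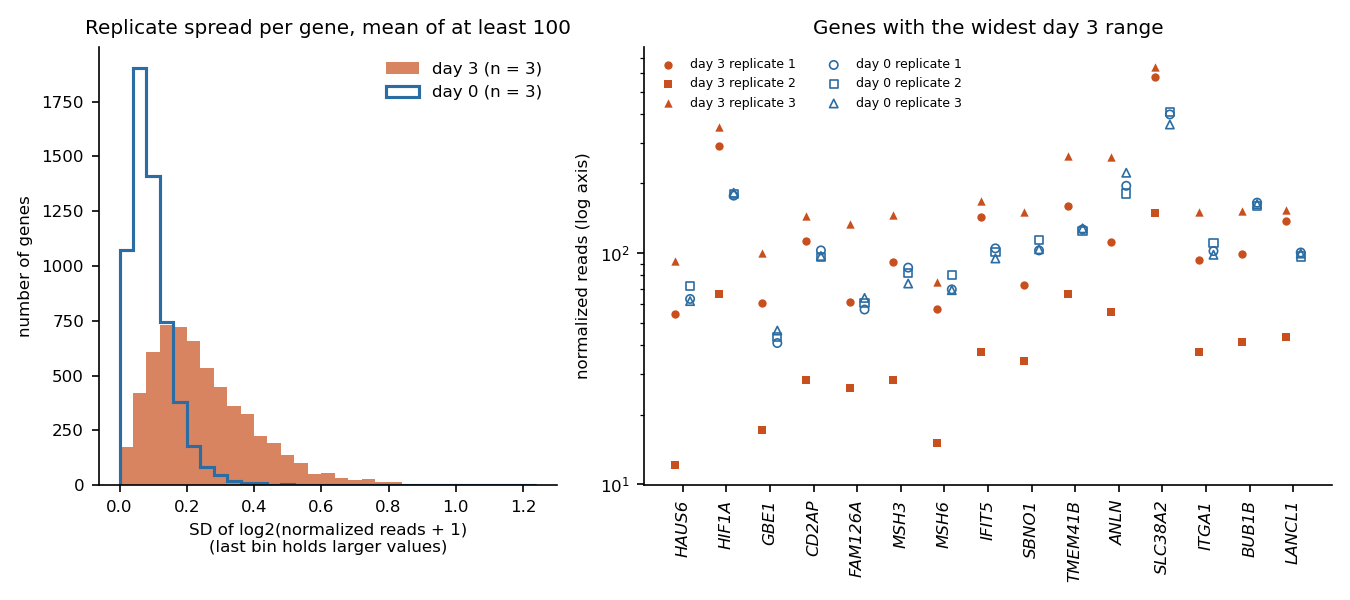
Left, number of genes by standard deviation of log2(normalized reads + 1) among the 3 libraries of each day, for the 5869 genes with a mean of at least 100; day 3 (filled) is centred at larger values than day 0 (outline). Right, normalized reads (log axis) of the 15 genes with the widest day 3 range, where day 3 replicate 2 (square) is lowest and replicate 3 (triangle) highest in each.

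Gene lists differed in how far this spread touched them. Deviations from the day 3 mean of each list averaged 0.29, 0.24 and −0.53 log2 units for complement in replicates 1 to 3, 0.29, 0.39 and −0.68 for the skeletal contractile genes, and 0.44, 0.15 and −0.59 for the blood and immune markers. Replicate 3, the shallowest library, was thus low for all of these and high for mitosis genes. The lists differed in level. With a minimum mean of 20, 4 of 7 complement, 4 of 8 contractile and 0 of 6 blood and immune genes remained, against all 37 mitosis genes. For cholesterol synthesis the averages were 0.08, −0.05 and −0.03, and for the amino acid response 0.01, 0.03 and −0.04. Such averages can hide opposite shifts within a list. Enzymes from squalene to lanosterol averaged 0.14, −0.25 and 0.11, and those from acetyl-CoA to farnesyl diphosphate 0.05, 0.07 and −0.11. In the amino acid response, transcription factor and feedback genes averaged 0.05, 0.10 and −0.15. Its secreted and other genes averaged 0.12, −0.20 and 0.08. Depth, immune markers and mitosis genes moved together in day 3 replicate 3, and their part in the spread was not tested.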

How the data were processed

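RNA of 17 libraries in 6 groups was measured by MARS-seq, and the 6 libraries of day 3 and day 0 on plastic were compared here. RNA was extracted with a PureLink kit, per the labels' protocols. The submitters' processing notes name cutadapt, STAR, HTSeq, DESeq and the build ARS-UCD1.2. Whether molecular identifiers and strand were used was not given in the sources used here; overlapping, antisense or near-identical genes may therefore share reads. Values in the deposited table are a normalized signal per gene, made by the authors from reads scaled by library, and every value is a whole multiple of the value of 1 read (100% of values within 0.1). Whole reads recovered this way served for depth, floors and the count tests alone. For day 3 replicate 2, 1 read is worth 1.01, so its scaled values and its reads nearly coincide. Of the value columns, 2 carry names that fit no sample and were left unused. No symbol is given for 1498 genes, and no coordinates are printed because the reference names come from another assembly.

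Values were analysed as log2(value + 1), which understates changes of genes with few reads, by limma 3.58.1 under R 4.3.3, using robust variances that follow the trend with the mean, 1 mean per group and two-sided tests adjusted by the Benjamini-Hochberg method over all 10683 genes with a mean of at least 5. Calls needed an adjusted p under 0.05 together with a log2 fold change of 1 or more either way. A gene that is low on 1 day can pass the minimum through the other day alone, which raises its chance of being called. Named genes were the 20 largest rises and 20 largest falls with a symbol and no overlap between the days, called members of the lists, the 15 genes with the widest day 3 range beyond day 0 among those with a mean of at least 50, and fixed landmarks. Other genes are named where needed to show the range of a list or an uncalled landmark of a pathway, and CTGF, HIF1A and FGFR1 were added with their values known. Some genes that the rule names are not reported here. The comparison, its genes and the lists were chosen with earlier results of these data known. List members are counted, not tested as a set.

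Titles of both groups carry the numbers 1 to 3, but no label says that a number marks a shared culture, so they were not taken as pairs. Deviations of same-numbered libraries correlated at 0.03, −0.07 and −0.08, and those of differently numbered ones at −0.03 to 0.11. These values cannot exclude shared cultures, which could go unseen beneath the wider spread of the day 3 libraries. On simulated reads for 10683 genes the test recovered 87% of 100 3-fold and 96% of 100 6-fold changes and called 1 of 10483 unchanged genes. Each gene was drawn on its own there, without the shifts that many genes of a day 3 library share. These rates therefore do not cover such shifts. Alternatives were other pseudocounts and minimum means, quantile normalization, rescaling to the same total, a fit of 15 libraries, weights per library or group, the replicate block, edgeR 4.0.16 quasi-likelihood and DESeq2 1.42.0 on recovered reads, no fold limit and leaving out each library.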

Additional observations from a re-analysis of the deposited data

How the results depend on the processing

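Calls depended mainly on the fold limit and on single libraries. With no fold limit 2847 genes passed, 1450 higher and 1397 lower. Leaving out 1 library gave 844 to 1381 called genes, 528 to 788 higher and 316 to 593 lower, the most without day 3 replicate 3. Rescaling to the same total gave 741 higher and 347 lower genes. The replicate number as a block gave 1062 genes, 651 higher and 411 lower, and since the numbers share nothing known between the days it is given for completeness. The other alternatives gave 774 (minimum mean of 20, where fewer genes were tested) to 1262 (array weights). Of 237 named called genes, 175 kept their call under every alternative that tested them, 62 lost it under at least 1, and 0 changed sign. Among gene lists, array weights gave 11 fallen mitosis genes in place of 6, 6 of ribosome biogenesis in place of 2 and 4 of the NOTCH pathway in place of 2, and 3 risen matrix protease and inhibitor genes in place of 1. Rescaling left 1 fallen mitochondrial ribosomal protein gene in place of 3, and a pseudocount of 4 or quantile normalization left no risen skeletal contractile gene. LBR, not called, had a log2 fold change of 0.021 without day 3 replicate 1, the highest of −0.33 to 0.021 when 1 library was left out. The median spread of day 3 stayed above that of day 0 under both pseudocounts, both filters and rescaling (0.247 to 0.31 at day 3 and 0.0969 to 0.136 at day 0). Depth limits genes near the minimum: in day 3 replicate 3 a floor of 3 reads equals 5.36 normalized reads.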

Other observations

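Some other lists, with 6 to 75 genes tested, held few called genes. Over all genes tested, 6.22% rose and 3.88% fell. Of 25 lysosome and autophagy genes 20 had positive fold changes (median 0.33), 1 rose and none fell. At the adjusted p without regard to fold, 8 of these were higher and none lower, against 13.6% and 13.1% of all genes. The gene that rose was GABARAPL1, which helps close autophagosomes, with 714, 662 and 632 normalized reads at day 3, against 264, 267 and 287 at day 0 (log2 fold change 1.29 ± 0.11). A second rose without day 3 replicate 2, day 3 replicate 3 or day 0 replicate 2. This was also so with edgeR, DESeq2, rescaling, quantile normalization or array weights. Of 75 mitochondrial ribosomal protein genes 3 fell and none rose (median −0.27). At the adjusted p without regard to fold, 21 of them were lower and 1 higher, against 13.1% and 13.6% of all genes. MRPL33, a protein of the large subunit, had 2 reads at day 3 and 56 at day 0; its normalized ratio was 0.0685 with a 95% exact counting interval of 0.0081 to 0.259. Of 17 heat shock genes 1 rose and 1 fell (median −0.16). Among 6 bone and cartilage genes SPP1, the matrix phosphoprotein osteopontin, rose, with 16047, 16629 and 19390.5 at day 3, against 7208, 6906 and 6268 at day 0 (log2 fold change 1.35 ± 0.11), and MSX2, a homeobox factor of osteoblast precursors, fell, with 29.6, 26.2 and 19.6 at day 3, against 78.1, 62.9 and 76.6 at day 0 (log2 fold change −1.50 ± 0.21). The libraries of the days did not overlap for SPP1 or for MSX2, as for 1074 of the 1080 called genes.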
